A study of Mus musculus with 8 samples.

Results

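Phagocytes make superoxide with an NADPH oxidase, and an antioxidant system removes the superoxide and the peroxide that comes from it. The genes of both sides of this balance were read in mouse leukaemia cells with and without Pik3ca, by microarray. The set was given as 36 gene symbols: the subunits of the phagocyte oxidase, the enzymes of superoxide and peroxide removal, the thioredoxin and glutathione systems, and NRF2, the transcription factor that controls many of these enzymes, with its inhibitor and 2 of its targets. Of the 36, 34 were found among the 19505 gene symbols of the deposited table, each with 1 row, and Prdx5 and Prdx6 were not matched and are not analysed here. Of the 34, 31 were bright enough to be tested among 9920 genes.

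Sorted were granulocyte-macrophage progenitors (GMPs) positive for GFP, the population that holds the leukaemia stem cells in leukaemia driven by the fusion oncogene MLL-AF9. They came from the bone marrow of mice that had received a transplant. The 2 groups were Pik3ca-/- cells (KO, 3 arrays) and wild-type cells (WT, 5 arrays), and both carried MLL-AF9. The product of Pik3ca is p110-alpha, a catalytic subunit of phosphoinositide 3-kinase (PI3K). The labels give neither the age of the mice, the deleted part of the gene nor the means of its deletion, and they do not say whether each array stands for its own mouse. P-values therefore cover the spread among these arrays, which may be technical.

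The oxidase consists of a pair of membrane proteins, which carry electrons from NADPH to oxygen, and cytosolic subunits that join them with a small GTPase when the cell is activated. In phagocytes the superoxide serves to kill microbes, and PI3K lipids are known to help recruit the cytosolic subunits. Superoxide dismutases turn superoxide into hydrogen peroxide, which catalase, glutathione peroxidases and peroxiredoxins remove. Glutathione and thioredoxin supply the reducing power, both drawn from NADPH. Under oxidative stress NRF2 escapes its inhibitor KEAP1 and binds antioxidant response elements in the promoters of its targets.

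Values are log2 as deposited and ran from 1.89 to 18.6 over all rows, with array medians from 5.26 to 5.51. The log base is read from that range. WT array 3 stood apart: across genes it correlated with the rest at 0.921 on average, where the other 7 had 0.968 to 0.972. More than 1 log2 unit separated it from the average of the other WT arrays in 32.3% of the genes tested. For WT arrays 1, 2, 4 and 5 the share was 6.27% to 7.45%, each against an average that held WT array 3. The comparison was therefore made with all arrays and without WT array 3. Pik3ca itself was 8.73, 9.31 and 9.40 across the KO arrays, against 9.48, 9.57, 8.41, 9.51 and 9.58 across WT arrays 1 to 5, so the lowest value of the 8 was on WT array 3, an array labelled wild type, and on the other 7 arrays KO was below WT. As the deleted part is not given, this row cannot check the labels, and the groups are named as labelled. The GMP markers Mpo, Elane and Prtn3, which encode granule proteins, and Kit were bright on all 8 arrays, and all 10 listed GMP markers lay above the median row on every array. Both B cell markers in the table lay below the median row on every array. Of the 4 T and NK cell markers Cd3e and Cd3g did so too, while Klrb1c lay above it on 3 arrays and Nkg7 on all 8. All 9 listed markers of maturing neutrophils, which also hold much oxidase, lay above it on every array, with a mean of 14.0 to 15.2 on the KO arrays, where the WT arrays had 14.4 to 14.8.

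Between KO and WT, no oxidase or antioxidant gene of the set was called. At an adjusted p under 0.05 in limma, 0 of the 31 tested genes were called, with all arrays and without WT array 3, as were 0% of all genes tested in both fits. The smallest adjusted p among the 31 was 0.998, or 0.989 without WT array 3. At an unadjusted p under 0.05 there were 0 of 31 with all arrays, against 2.84% of all genes, and 0 of 31 without WT array 3, against 4.68%. In 0 of the 34 genes did all KO values lie above, or all below, every WT value, against 3.09% of all genes with all arrays and 5.55% without WT array 3. In bulk RNA, fewer cells of a type and less RNA per cell cannot be told apart.

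The differences of the 31 genes lay between -0.30 and 0.57 with all arrays. Their median was 0.09, against 0.04 over all genes tested, and 22 of 31 were above 0 (71.0%, against 55.98% of all genes). Without WT array 3 the median was 0.05, against 0.0002, and 19 of 31 were above 0 (61.3%, against 50.1%). The median absolute difference of the 31 genes was 0.10 without WT array 3, against 0.18 over all genes. For 28 of the 31 genes the 95% interval of the difference without WT array 3 lay within 1 log2 unit of 0, a change of 2-fold, as it did for 72.2% of all genes. For 15 of the 31 it lay within a change of 1.5-fold, as it did for 25.9% of all genes. With all arrays these counts were 24 and 11, against 54.8% and 11.2% of all genes. Single arrays weighed on these small differences: leaving out 1 array moved 29 of the 31 by over 1.5 times or turned their sign, all but Cyba and Txnrd2.

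**Figure D1:**
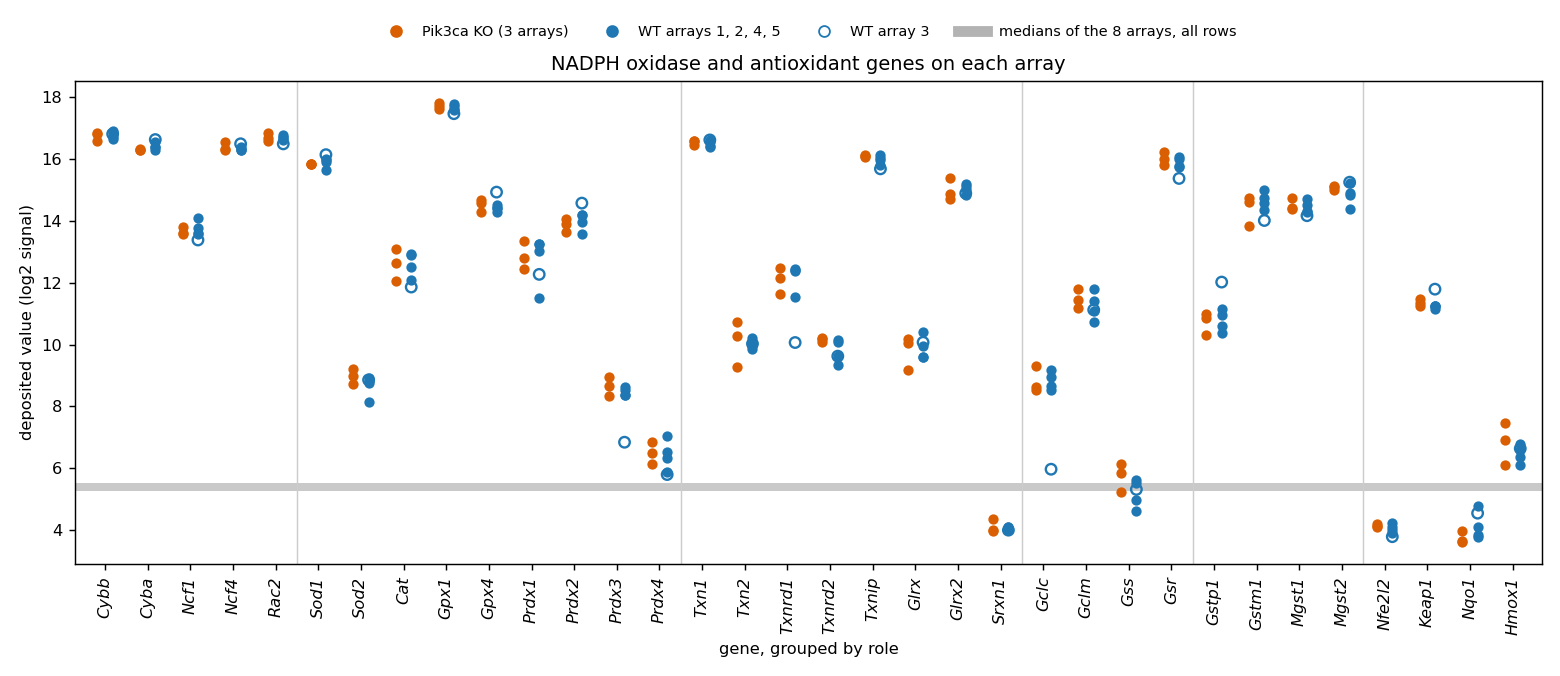
Deposited log2 signal of the 34 genes (vertical axis) on each array, grouped by role: KO arrays as filled orange points, WT arrays 1, 2, 4 and 5 as filled blue points and WT array 3 as open circles. The grey band spans the array medians, 5.26 to 5.51. KO and WT points overlap in all 34 genes, and WT array 3 lies far below the others in Txnrd1, Prdx3 and Gclc.

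The 5 subunits of the phagocyte oxidase were bright on every array and differed little between them. Cybb encodes gp91phox, the catalytic membrane subunit that passes electrons to oxygen. It was 16.81, 16.58 and 16.84 across the KO arrays, against 16.84, 16.91, 16.82, 16.73 and 16.67 across WT arrays 1 to 5. KO array 2 held the lowest value, and the other KO arrays lay inside the WT range. The KO mean was 16.74 ± 0.14 (SD, n = 3) and the WT mean 16.80 ± 0.09 (SD, n = 5). They differed by -0.05, with a 95% interval of -0.46 to 0.35 (exact two-sided permutation p of 0.518). That interval spans a change of 0.728-fold to 1.28-fold.

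Cyba encodes p22phox, the partner that stabilises gp91phox in the membrane. It was 16.29, 16.32 and 16.30 in the KO arrays, a spread of 0.015 (SD, n = 3), and 16.31, 16.40, 16.64, 16.39 and 16.55 in WT arrays 1 to 5. Only WT array 1 lay inside the KO range, and WT array 3 was the highest. The difference was -0.15, with an interval of -0.55 to 0.25 and an exact permutation p of 0.125. Without WT array 3 it was -0.11, with an interval of -0.45 to 0.24, and the exact permutation p was 0.0857, where 0.0286 is the smallest that 35 splits can give.

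Ncf1 encodes p47phox, the cytosolic organiser that is phosphorylated on activation and binds p22phox. It was 13.60, 13.61 and 13.80 across the KO arrays, against 14.09, 13.78, 13.39, 13.59 and 13.61 across WT arrays 1 to 5, so the KO arrays lay inside the WT range, which WT arrays 1 and 3 bounded. The difference of -0.02 had an interval of -0.51 to 0.46. Ncf4 encodes p40phox, a cytosolic subunit whose PX domain binds a phosphoinositide. It was 16.54, 16.33 and 16.29 across the KO arrays, against 16.34, 16.38, 16.50, 16.30 and 16.29 across WT arrays 1 to 5, with KO array 1 the highest of all. The difference of 0.03 had an interval of -0.37 to 0.43. Rac2, the haematopoietic GTPase that completes the active oxidase, was 16.86, 16.68 and 16.60 across the KO arrays, against 16.61, 16.80, 16.50, 16.73 and 16.69 across WT arrays 1 to 5. KO array 1 was again the highest, and the other KO arrays lay among the WT arrays. The difference of 0.05 had an interval of -0.36 to 0.46, and the exact permutation p was 0.893 for Ncf1, 0.768 for Ncf4 and 0.589 for Rac2.

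Over the 5 subunits the 95% intervals reached at most -0.55 and 0.46 with all arrays, and -0.52 and 0.41 without WT array 3. The standard errors, 0.18 to 0.21, are larger than the spread of these arrays alone would give, because limma draws each gene's variance towards that of all genes.

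Of 11 other genes of NADPH oxidases, 9 were in the table and 4 were tested. Of these 4, 0 were called, 2 differed by more than 0 and 2 by less. Noxo1, the organiser of a non-phagocyte oxidase, was 7.32 ± 0.41 (SD, n = 3) for KO against 7.95 ± 0.33 (SD, n = 5) for WT. The difference was -0.62, with an unadjusted limma p of 0.0464 and an adjusted p of 0.998. Without WT array 3 it was -0.54, with an unadjusted limma p of 0.0667. Hvcn1, the proton channel that carries away the charge left by the oxidase, was 4.94 in WT array 3 and 10.1 to 10.9 in the other 7 arrays. Its difference of 1.11 became 0.02 without WT array 3. Cybc1, a chaperone of gp91phox, differed by -0.08, and by -0.16 without WT array 3. Nox1, Nox3 and Nox4, the catalytic subunits of other oxidases, lay below the median row on all 8 arrays.

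Of the regulators of the antioxidant response Nfe2l2 and Keap1, only Keap1 was bright enough to be tested, and its values overlapped between the groups. Nfe2l2, which encodes NRF2, was 4.14, 4.09 and 4.21 across the KO arrays, against 4.11, 4.02, 3.79, 4.24 and 3.89 across WT arrays 1 to 5. It lay below the median row on all 8 arrays and was not tested in limma. The KO values lay within the WT range, but at this level the order of the groups has no reading as expression. Keap1, encoding the inhibitor that marks NRF2 for degradation, was 11.24, 11.48 and 11.34 across the KO arrays, against 11.14, 11.24, 11.80, 11.25 and 11.24 across WT arrays 1 to 5. WT array 3 was the highest of the 8. The difference was 0.02, with an interval of -0.46 to 0.50. Without WT array 3 it was 0.14, with an interval of -0.21 to 0.48, with an exact permutation p of 0.0571, the lowest among the 34 genes in that comparison. In limma the adjusted p of Keap1 was 0.989 there.

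Nqo1 and Hmox1 are classical targets of NRF2. Nqo1, a quinone reductase, was 3.97, 3.63 and 3.62 across the KO arrays, against 4.08, 3.79, 4.55, 3.82 and 4.77 across WT arrays 1 to 5. These values lay below the median row on every array, so the order of the groups has no reading as expression. Hmox1 encodes haem oxygenase 1, which degrades haem. It was 6.92, 7.47 and 6.09 across the KO arrays, against 6.10, 6.36, 6.64, 6.79 and 6.60 across WT arrays 1 to 5. KO array 2 was the highest and KO array 3 the lowest of all 8 arrays, so the KO values enclosed the WT values. The difference of 0.33 had an interval of -0.40 to 1.05, with an exact permutation p of 0.357, and was 0.007 without KO array 2.

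Promoters were searched for the antioxidant response element to see which of the genes carry one next to their start. The search covered the 250 bases before the start in RefSeq promoter sequences of GRCm38.p6, on both strands, where 30 of the 36 genes had an entry. The other 6, Rac2, Ncf4, Gclc, Gsr, Hmox1 and Prdx6, had none and were not searched. The loose core, TGACNNNGC or TGAGNNNGC, was found in 9 of 41 windows of the set, or 21.95%, against 23.0% of all 32851 windows. The form TGACTCAGC or TGAGTCAGC, one case of the loose core, was found in 0.706% of all windows. In the set it was found in 3 of the 41 windows, those of Prdx1, Gstp1 and Srxn1. Whether the set differs from all windows in this form was not tested. This form also holds the AP-1 site TGAGTCA. A match describes these letters and does not show a bound site. The stretches around the 3 matches are shown 5′ to 3′ on the strand of the gene, with the match in capitals. Among the 30 genes searched, these 3 share this form:
Prdx1: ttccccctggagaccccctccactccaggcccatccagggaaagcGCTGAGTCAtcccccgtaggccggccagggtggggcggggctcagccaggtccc
Gstp1: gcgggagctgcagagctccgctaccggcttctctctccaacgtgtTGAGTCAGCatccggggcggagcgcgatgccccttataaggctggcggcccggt
Srxn1: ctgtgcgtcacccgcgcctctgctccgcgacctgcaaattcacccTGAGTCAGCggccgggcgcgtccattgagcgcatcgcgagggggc

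In GRCm38.p6 the Prdx1 stretch is chr4:116685421-116685519 on the plus strand, the Gstp1 stretch chr19:4037933-4038031 on the minus strand and the Srxn1 stretch chr2:152105434-152105523 on the plus strand. The matches begin 133, 74 and 45 bases before the start, and in Prdx1 the element reads on the opposite strand. Prdx1 encodes a cytosolic peroxiredoxin, a thiol enzyme that reduces peroxides. It was 12.81, 13.34 and 12.45 across the KO arrays, against 13.26, 13.04, 12.27, 13.26 and 11.52 across WT arrays 1 to 5, with WT array 5 the lowest of all. The difference was 0.19, with an interval of -0.79 to 1.17. Gstp1, a cytosolic glutathione transferase, was 10.85, 11.00 and 10.32 across the KO arrays, against 10.37, 10.96, 12.02, 11.15 and 10.60 across WT arrays 1 to 5. Here WT array 3 was the highest, 1.26 above the average of WT arrays 1, 2, 4 and 5. The difference of -0.30 became -0.05 without WT array 3, where the interval was -0.63 to 0.54. Srxn1, encoding sulfiredoxin, which repairs overoxidised peroxiredoxins, lay between 3.96 and 4.37, below the median row on all 8 arrays. Gstp1 has close copies in the mouse genome, such as Gstp2, and how the row separates them is not given in the sources used here.

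Of 14 other regulators and partners of NRF2, 13 were tested and 0 were called, with a median difference of 0.11 and 8 of 13 above 0. Without WT array 3 the median was 0.001, and 7 of 13 were above 0. Maff, a small partner of NRF2 named after its values were seen, was the 1 gene of this list with an unadjusted p under 0.05 there, at a difference of 0.82 (limma p of 0.0248, adjusted p of 0.989). With all arrays it differed by 0.19, and WT array 3 was the highest at 9.99. Nfe2, the haematopoietic relative of NRF2, was 11.24 ± 0.08 (SD, n = 3) for KO against 10.88 ± 0.31 (SD, n = 5) for WT. The coactivator gene Ep300 differed by 0.36, and by 0.18 without WT array 3, and Cul3, the scaffold of the ubiquitin ligase that KEAP1 serves, by 0.30, and by 0.04 without WT array 3.

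Of 18 other NRF2 targets, 9 were tested and 0 were called, 6 above 0 and 3 below, with a median of 0.19, and of 0.03 without WT array 3. Trim16 was 10.72, 10.40 and 9.78 across the KO arrays, against 9.32, 9.48, 10.24, 9.24 and 8.82 across WT arrays 1 to 5. Without WT array 3 every KO value lay above every WT value, and the difference was 1.09, with an unadjusted limma p of 0.0033 and an adjusted p of 0.986. With all arrays it was 0.88. Cbr1, a carbonyl reductase, was 7.52 ± 0.05 (SD, n = 3) for KO against 7.30 ± 0.16 (SD, n = 5) for WT. Its groups did not overlap in either comparison, the difference was 0.22, and the unadjusted limma p was 0.260. In this list 1 of 9 genes was apart with all arrays and 2 of 9 without WT array 3, against 3.09% and 5.55% of all genes. Pgd, an NADPH-producing enzyme of the pentose phosphate pathway, differed by 0.83, and by 0.34 without WT array 3, where it read 11.5 against 13.7 to 14.2 in the other WT arrays.

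The dismutases, catalase and glutathione peroxidases overlapped between the groups, and none passed the test. Sod1, the cytosolic copper-zinc superoxide dismutase, was 15.85 on each of the 3 KO arrays, against 15.92, 15.65, 16.15, 16.00 and 15.97 across WT arrays 1 to 5. The KO values lay between WT array 2 and the other WT arrays. The difference was -0.09, with an interval of -0.52 to 0.33. Sod2, the mitochondrial manganese dismutase, was 8.72, 9.22 and 8.99 across the KO arrays, against 8.92, 8.14, 8.86, 8.82 and 8.75 across WT arrays 1 to 5. WT array 2 was the lowest, and KO arrays 2 and 3 were above all WT arrays while KO array 1 was not. The difference of 0.28 had an interval of -0.27 to 0.83, with an exact permutation p of 0.321. Without WT array 2 it was 0.14.

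Cat encodes catalase, the peroxisomal enzyme that splits hydrogen peroxide. It was 12.05, 13.09 and 12.63 across the KO arrays, against 12.51, 12.08, 11.86, 12.91 and 12.95 across WT arrays 1 to 5, so both groups covered about the same span. The difference of 0.13 was -0.02 without WT array 3. Gpx1, the main cytosolic glutathione peroxidase, was 17.73, 17.84 and 17.62 across the KO arrays, against 17.62, 17.78, 17.47, 17.72 and 17.59 across WT arrays 1 to 5. The groups overlapped, with KO array 2 the highest and WT array 3 the lowest. Its difference was 0.09, with an interval of -0.32 to 0.50. Gpx4, the peroxidase that reduces lipid peroxides in membranes, was 14.30, 14.60 and 14.69 across the KO arrays, against 14.28, 14.41, 14.94, 14.51 and 14.42 across WT arrays 1 to 5, with WT array 3 the highest. The difference was 0.02, and 0.12 without WT array 3. The interval of that difference was -0.26 to 0.50.

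Among the other peroxiredoxins, Prdx3, the mitochondrial form, was 8.95, 8.65 and 8.35 across the KO arrays, against 8.52, 8.37, 6.84, 8.38 and 8.64 across WT arrays 1 to 5. WT array 3 stood apart, at -1.63 from the average of the other 4. The difference of 0.50 became 0.17 without it, with an interval of -0.27 to 0.61. Prdx2, abundant in red cells, was 13.87 ± 0.21 (SD, n = 3) for KO against 14.10 ± 0.36 (SD, n = 5) for WT, a difference of -0.24, and of -0.12 without WT array 3, the highest of the 8 arrays. Prdx4, of the endoplasmic reticulum, lay between 5.80 and 7.05. It differed by 0.18, by 0.05 without WT array 3 and by 0.0038 without KO array 1. Red cell markers were mostly dim: of 5 in the table, Klf1 and Epor lay below the median row on every array, and only Alas2 was tested, with values from 5.98 to 9.97. The mean of the 5 was 4.77 to 5.27 on the KO arrays, where the WT arrays had 4.69 to 6.17, with WT array 3 the highest, and its part in the Prdx2 values was not tested.

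In the thioredoxin system, Txn1 and Txn2 encode the cytosolic and the mitochondrial thioredoxin. Txn1 lay between 16.39 and 16.64 on all 8 arrays, the narrowest range among the tested genes, and differed by 0.02, with an interval of -0.38 to 0.41. Txn2 was 10.28, 10.74 and 9.29 across the KO arrays, against 9.87 to 10.20 in WT, so that KO arrays 2 and 3 were the extremes. Txnrd1, the cytosolic thioredoxin reductase, was 11.65, 12.48 and 12.16 across the KO arrays, against 12.41, 12.39, 10.07, 12.45 and 11.54 across WT arrays 1 to 5. Its difference of 0.33 became -0.10 without WT array 3, where the interval was -0.77 to 0.58. Txnrd2, the mitochondrial reductase, was 10.07, 10.17 and 10.22 across the KO arrays, against 9.63, 9.34, 9.63, 10.13 and 10.10 across WT arrays 1 to 5. KO arrays 2 and 3 were above all WT arrays, and KO array 1 was below WT arrays 4 and 5. The difference of 0.39 had an interval of -0.15 to 0.92. The exact permutation p was 0.0714, the smallest of the 34 genes with all arrays, where 56 splits allow 0.0179, and 0.229 without WT array 3.

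Txnip encodes the protein that binds and inhibits thioredoxin and restrains glucose uptake. It was 16.12, 16.11 and 16.06 across the KO arrays, against 16.04, 15.82, 15.69, 15.99 and 16.15 across WT arrays 1 to 5. The KO arrays lay above all WT arrays but WT array 5, the highest of the 8. The difference was 0.16, with an interval of -0.26 to 0.59 and an exact permutation p of 0.196, and 0.10 without WT array 3. The regulators of Txnip and its arrestin relatives showed 4 of 5 tested genes above 0 and 0 called, with a median of 0.34, and of 0.26 without WT array 3. Mlx, the partner of the glucose-sensing factors that activate Txnip, was 13.22 ± 0.19 (SD, n = 3) for KO against 12.74 ± 0.40 (SD, n = 5) for WT, a difference of 0.49, and of 0.32 without WT array 3. Arrdc3 differed by 0.62 and Arrdc4 by 0.34, and by 0.38 and 0.26 without WT array 3. The glutaredoxin genes Glrx and Glrx2, whose products use glutathione to reduce protein thiols, differed by -0.13 and -0.03.

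**Figure D2:**
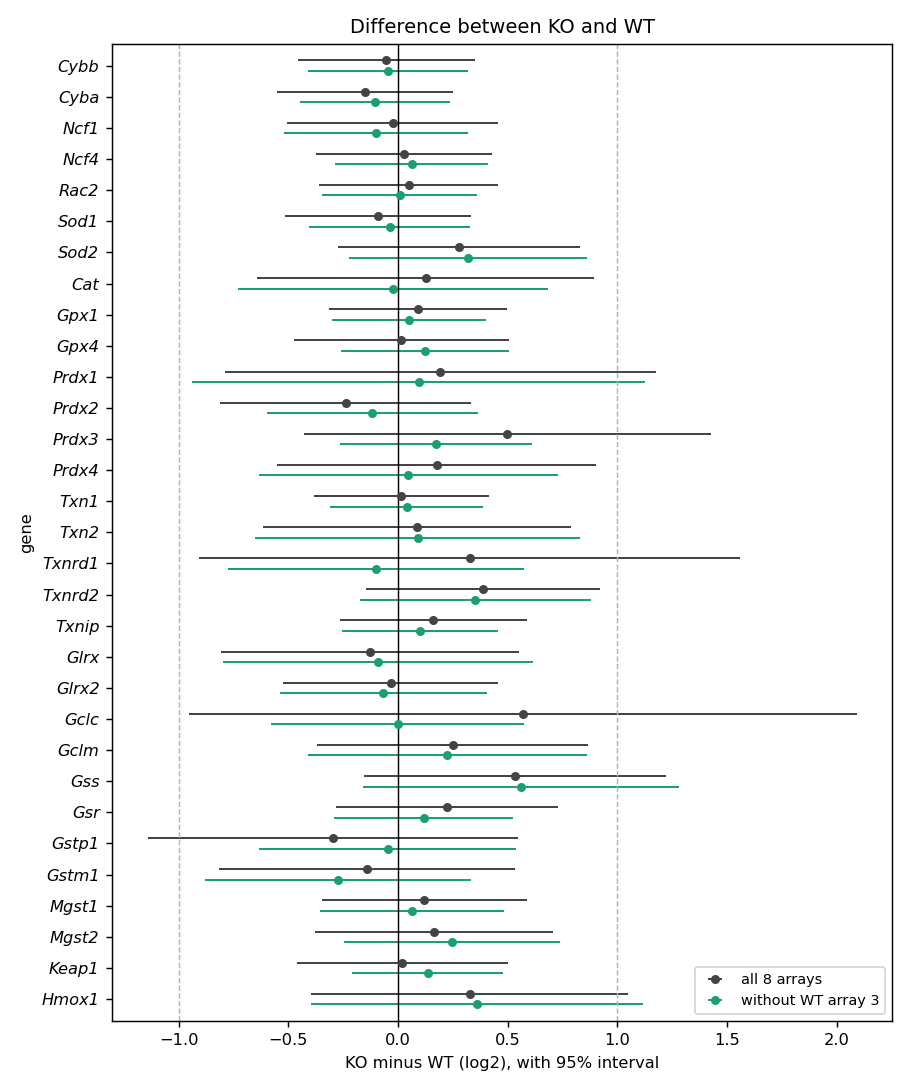
Difference between KO and WT (horizontal axis, log2) of the 31 tested genes, as points with 95% limma intervals, with all 8 arrays (grey) and without WT array 3 (green). Dashed lines mark a change of 2-fold. All intervals include 0, and those of Gclc, Txnrd1 and Prdx3 narrow most when WT array 3 is left out.

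Glutathione is made in a pair of steps and recycled by a reductase. Gclc and Gclm encode the catalytic and the modifier subunit of glutamate-cysteine ligase, the first and limiting enzyme. Gclc was 8.63, 8.55 and 9.32 across the KO arrays, against 9.17, 8.96, 5.97, 8.55 and 8.66 across WT arrays 1 to 5. WT array 3 stood apart, at -2.86 from the average of the other 4, and the remaining arrays overlapped. The difference was 0.57 with all arrays, the highest of the 31 genes, and -0.002 without WT array 3, with an interval of -0.58 to 0.58. Gclm was 11.20, 11.79 and 11.45 across the KO arrays, against 11.79, 11.41, 11.13, 10.73 and 11.08 across WT arrays 1 to 5. The difference was 0.25, and 0.22 without WT array 3. On WT array 3 Gclm was at -0.13 from the other WT arrays, so the subunits of this enzyme parted there. Gclc, Gclm, Txnrd1, Txn2 and, for their promoters, Prdx1 and Gstp1 were given in full after their values were seen.

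Gss, glutathione synthetase, was 5.24, 6.14 and 5.85 across the KO arrays, against 4.62, 5.52, 5.32, 4.97 and 5.62 across WT arrays 1 to 5. It lay above the median row on 4 of the 8 arrays and is dim. KO arrays 2 and 3 were above all WT arrays, and KO array 1 was not. The difference was 0.53, with an interval of -0.15 to 1.22 and the smallest unadjusted limma p of the 31 genes, 0.113, for an adjusted p of 0.998. The exact permutation p was 0.179. Gsr, glutathione reductase, was 16.24, 15.82 and 16.02 across the KO arrays, against 16.02, 16.07, 15.38, 15.75 and 15.79 across WT arrays 1 to 5, with WT array 3 the lowest. The difference of 0.22 was 0.12 without WT array 3, with an interval of -0.29 to 0.52. The 4 genes of this group were all above 0 with all arrays, with a median of 0.39, and 3 of 4 without WT array 3, with a median of 0.17.

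The transferases attach glutathione to reactive compounds. Gstm1 was 14.75, 14.61 and 13.85 across the KO arrays, against 15.002, 14.75, 14.02, 14.36 and 14.60 across WT arrays 1 to 5, so KO array 3 and WT array 3 were low. The difference was -0.14, and -0.27 without WT array 3, with an interval of -0.88 to 0.33. Without KO array 3 it was 0.14. Gstm1 belongs to a family of near copies, as Gstp1 does. The membrane-bound transferase gene Mgst2 was 15.15, 15.11 and 15.003 across the KO arrays, against 14.90, 14.84, 15.26, 14.40 and 15.23 across WT arrays 1 to 5. The difference of 0.16 was 0.25 without WT array 3, with an interval of -0.25 to 0.74. Mgst1 differed by 0.12, by 0.06 without WT array 3 and by 0.0064 without KO array 2.

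Of 24 other glutathione genes, 17 were tested and 0 were called, 9 above 0 and 8 below. Cth, which makes cysteine by transsulfuration, was 7.96 ± 0.94 (SD, n = 3) for KO against 7.13 ± 0.52 (SD, n = 5) for WT, a difference of 0.83. The mitochondrial transferase gene Gstk1 differed by -0.65 and Hagh, of the glyoxalase pathway, by 0.39. Of 21 other redox enzymes, 10 were tested and 0 were called, 4 above 0 and 6 below. Gpx3, the secreted peroxidase, differed by 0.52, Sesn1, a sestrin, by 1.03 and Msrb2, a methionine sulfoxide reductase, by 0.36. Without WT array 3 Gpx3 was at 0.55, Sesn1 at 0.51 and Msrb2 at 0.26.

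The enzymes that supply NADPH and the machinery that makes selenoproteins such as the glutathione peroxidases gave 0 calls among 7 tested genes each. Of 11 genes listed for NADPH supply, 9 were in the table, and G6pdx and Nnt were not matched. NADPH supply had a median difference of 0.27, with 5 of 7 above 0, and of 0.08 without WT array 3, whose median over this list was -1.17 from the other WT arrays. Nadk2, the mitochondrial NAD kinase, differed by 0.33 and Mthfd2, of mitochondrial folate metabolism, by 0.35. Without WT array 3 Nadk2 differed by 0.46 and Mthfd2 by 0.23. Selenoprotein synthesis had a median of 0.07, and of 0.02 without WT array 3. In it Sephs2, which makes the selenium donor, differed by 0.25, and Sepsecs and Sephs1 by 0.69 and 0.42, and by -0.09 and -0.08 without WT array 3. Over the 71 distinct genes tested in the 8 lists, 0 were called in either comparison, 2 had an unadjusted p under 0.05 in each (2.82%), and the median difference was 0.05, or 0.03 without WT array 3.

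**Figure D3:**
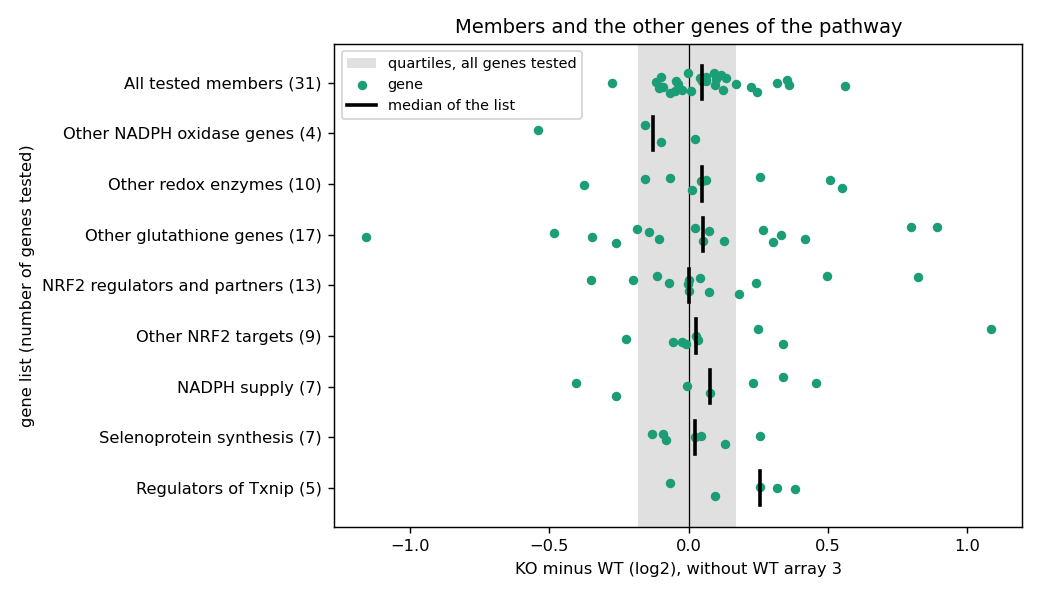
Difference between KO and WT without WT array 3 (horizontal axis, log2) for the 31 tested genes of the set and the other genes of the pathway by list, 1 point a gene, with the list's median as a black bar. The shaded band spans the quartiles of all genes tested, -0.18 to 0.17, and the list medians lie inside it except for the regulators of Txnip, at 0.26 over 5 genes.

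WT array 3 departed from the other WT arrays in a few genes of the set. On it, 4 of the 31 tested genes lay over 1 log2 unit from the mean of the other WT arrays (12.9%, against 32.3% of all genes): Gclc, Txnrd1 and Prdx3 below and Gstp1 above. The other 4 WT arrays were each set against a mean that held WT array 3. On them there were 2 such genes in all, Gclc above on WT array 1 and Prdx1 below on WT array 5. Gclc was 9.17 on WT array 1 and 8.96, 5.97, 8.55 and 8.66 on WT arrays 2 to 5, so the value of WT array 3 lowered that mean. WT array 3 was the lowest of the 8 arrays for 11 of the 31 genes and the highest for 7. The 4 genes were among the 13 with a mean of 12 or less, and 0 of the 18 brighter genes lay as far off. Over all genes the shares were 34.8% for those with a mean of 12 or less and 24.5% for the 2405 brighter ones. Among the oxidase subunits Ncf1 departed most on this array, at -0.38. The cause of these shifts was not tested.

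**Figure D4:**
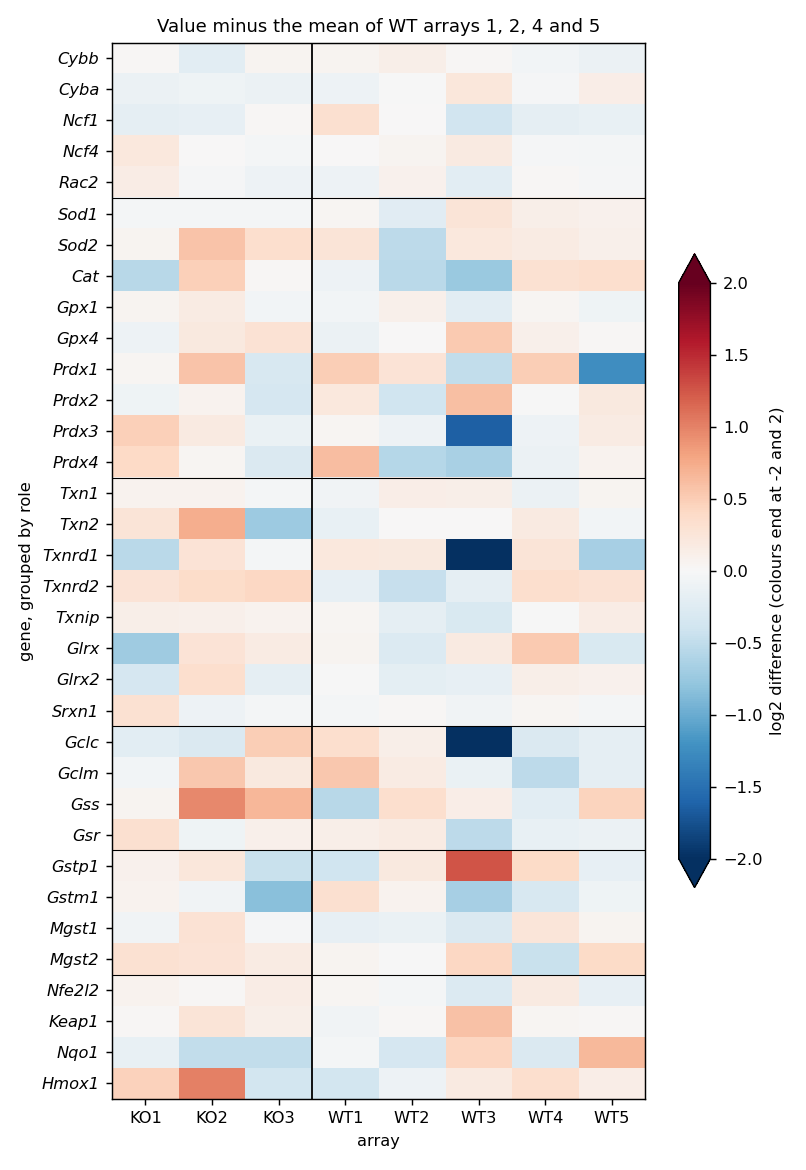
Each gene's value minus its mean over WT arrays 1, 2, 4 and 5 (colour, log2), for the 34 genes (rows, by role) on the 8 arrays (columns). The oxidase rows are pale on all arrays, and the darkest cells are Gclc, Txnrd1 and Prdx3 on WT array 3, at -2.86, -2.13 and -1.63, where the colours end at -2 and 2.

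Some markers of cell types differed between the groups, and 0 were called at an adjusted p of 0.998 in limma with all arrays. Of the 7 monocyte markers tested, 2 were above 0 and 5 below. Ms4a6c and Irf8, 2 of these 7, were lower in every KO array than in any WT array. Their differences were -1.14 and -0.97, with unadjusted limma p of 0.0033 and 0.0208. Over all genes, 3.09% had groups that did not overlap and 2.84% an unadjusted limma p under 0.05, with all arrays. Vcam1 and Adgre1 were the 2 monocyte markers above 0, at 1.52 and 0.60, and at 1.29 and 0.15 without WT array 3. Over the 8 monocyte markers in the table the mean level was 7.87 to 8.61 on the KO arrays, where the WT arrays had 7.85 to 8.82. Among the 10 GMP markers 4 were above 0 and 6 below. Cd34, a progenitor surface protein, was the farthest, at -2.001 (unadjusted limma p of 0.0368), and at -1.50 without WT array 3 (unadjusted limma p of 0.0531). Of the 9 markers of maturing neutrophils 1 was above 0 and 8 below, with a median of -0.12. All 4 megakaryocyte markers tested were below 0, with a median of -0.83, and WT array 1 was the highest in Pf4, at 12.44. Nkg7 differed by -0.74 (unadjusted limma p of 0.0440), and by -0.62 without WT array 3 (unadjusted limma p of 0.0683). The 7 markers of eosinophils, mast cells and basophils in the table had a mean of 6.61 to 6.79 on the KO arrays. The WT arrays had 6.92 to 7.64, so these means did not overlap. As single genes, 0 of the 6 tested were apart, against 3.09% of all genes with all arrays. Of the 6, 5 were below 0 and 1 above, Hdc at 0.76. Prg2 was the farthest, at -2.19, with 11.98 and 12.84 on WT arrays 3 and 4. Oxidase genes are expressed in monocytes as well as in granulocytes, and the part of any of these marker differences in the oxidase values was not tested.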

How the data were processed

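Per the labels' protocols, total RNA was labelled with biotin for Affymetrix arrays. The deposited matrix holds log2 signals in 28846 rows for 8 arrays. Its log base was read from the range of the values. Background correction, normalization by the authors and genome build: not given in the sources used here. Design text and platform annotation appear to name different Affymetrix arrays. Of 22206 transcript rows, 19572 carried 1 symbol, 0 several and 2634 none.

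Tested rows had 1 symbol and exceeded the median of at least 3 arrays, with the row of highest mean kept per symbol. On these 9920 genes KO and WT were compared by limma 3.58.1 in R 4.3.3, two-sided, with Benjamini-Hochberg adjustment at 0.05. Exact two-sided permutation tests were added for single genes. Standard errors and intervals are limma's. The scripts were tested on simulated data. No pairing was used, as the design text names no batch. Arrays sharing replicate number 1, 2 or 3 had deviations that correlated at 0.02, -0.02 and 0.14.

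The genes and lists were chosen with earlier results of these data known. Values on every array are given for the oxidase genes, for the 6 other genes of smallest p in each comparison, and for textbook enzymes and regulators. Up to 3 genes of smallest p are named per list. Alternatives were no filter or a stricter one, quantile normalization, median centring, the row of largest variance per symbol, a trended robust variance, array weights, a replicate block and leaving out each array. Figures were drawn with matplotlib 3.10.9.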

Additional observations from a re-analysis of the deposited data

Results flagged for a closer look

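Within the WT group, 4 of the 34 genes had 1 array set off from its neighbours by most of the group's range, which about 1 group in 20 shows by chance. In Prdx3 this was WT array 3, the lowest at 6.84, where the next value was 8.37. In Gclc it was again WT array 3, at 5.97, with the next at 8.55. In Keap1 WT array 3 was the highest, at 11.80, with the next at 11.25. In Sod2 it was WT array 2, the lowest at 8.14, with the next at 8.75.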

How the results depend on the processing

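In limma, 0 genes of the table were called under every alternative run. Over the alternatives to the fit with all arrays, the smallest adjusted p of a gene of the set was 0.936. For the alternatives with WT array 3 already left out, the adjusted p of the set was not taken. There the smallest adjusted p over all genes was 0.124, without KO array 3. Without a filter on dim rows, 592 genes had an unadjusted p under 0.05 with all arrays and 911 without WT array 3, out of 19505 tested, against 282 and 464 of 9920. The median difference of the set ran from 0.0067 to 0.145 when 1 array was left out. Where WT array 3 was already left out it ran from 0.0245 to 0.109, the last without KO array 3. With the replicate block it was 0.078, and 0.092 without WT array 3, with 0 genes called. Some small differences changed sign, and the cause was not tested. Quantile normalization gave -0.0015 for Gpx4 and -0.020 for Keap1. Array weights gave -0.031 for Cat and -0.10 for Txnrd1. The replicate block gave -0.018 for Ncf4, -0.015 for Gpx4, -0.022 for Txn1, 0.058 for Glrx2 and -0.040 for Keap1. Leaving out 1 array at a time turned the sign in 15 genes, whose differences ranged as follows: Cybb -0.10 to 0.029, Ncf1 -0.10 to 0.076, Ncf4 -0.051 to 0.074, Rac2 -0.023 to 0.10, Cat -0.12 to 0.40, Gpx4 -0.066 to 0.13, Prdx1 -0.094 to 0.40, Txn1 -0.018 to 0.052, Txn2 -0.23 to 0.49, Txnrd1 -0.10 to 0.55, Glrx -0.31 to 0.18, Glrx2 -0.23 to 0.10, Gclc -0.0020 to 0.80, Gstm1 -0.31 to 0.14 and Keap1 -0.042 to 0.14. The number of arrays limits the precision, and the order of dim rows cannot be read.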
